A study of Mus musculus with 31 samples.

Results

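Granzyme B (Gzmb), the α, β and γ chains of the IL-2 receptor (Il2ra, Il2rb and Il2rg), the β1 chain of the IL-12 receptor (Il12rb1) and the receptor Gpr171 are the 6 genes described here, out of 15648 genes measured in mouse hippocampus. They were picked by symbol, as genes of activated T cells that were far above control in hippocampi with antigen at 5 days, so their difference from control is given as a description and not tested. All mice were adult OT-I/Rag-/- mice. They carry a transgenic T cell receptor for the OVA antigen on their CD8+ T cells and lack Rag1, so that no other T cells and no B cells mature, while innate cells are still made. The rAAV-OVA group received rAAV-hSyn-OVA-mCherry in both dorsal CA1 regions, a vector that makes OVA and mCherry in neurons, and the rAAV-control group received rAAV-hSyn-mCherry, with the fluorescent marker alone. The left hippocampus was sequenced as bulk RNA, 1 library per mouse, at 2, 5, 8 and 28 days, with 4 mice per group and day except for 3 rAAV-control mice at 8 days, 31 mice in all. The question here is how far these genes followed the amount of CD8+ T cell transcript, measured as Cd8a, and how far their level per Cd8a changed over the course of the disease.

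The IL-2 receptor is built from an α chain, which raises the affinity for IL-2 on activated T cells, and from β and γ chains, which carry the signal through the kinases JAK1 and JAK3 to STAT5. The β and γ chains also serve IL-15, and the γ chain is shared with the receptors for IL-4, IL-7 and IL-21. IL-12Rβ1 is used by the receptors for IL-12 and IL-23 and works with the kinase TYK2, and IL-12 drives the cytotoxic program of CD8+ T cells through STAT4. Granzyme B is the serine protease that cytotoxic T cells and natural killer cells deliver into target cells to kill them. Gpr171 is a G protein-coupled receptor of T cells for which the neuropeptide BigLEN, cut from the precursor encoded by Pcsk1n, has been described as ligand.

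The deposited table lists them as Gzmb (ENSMUSG00000015437.6), Il2ra (ENSMUSG00000026770.6), Il2rb (ENSMUSG00000068227.10), Il2rg (ENSMUSG00000031304.19), Il12rb1 (ENSMUSG00000000791.10) and Gpr171 (ENSMUSG00000050075.9). The authors had dropped every gene that did not reach 15 counts in 15 or more of the mice. Gzmb, Il2ra and Gpr171 each passed with 15 mice, of which 12 were the rAAV-OVA mice at 5, 8 and 28 days, so these genes could hardly enter the table without differing between the groups. Il2rb reached 15 counts in 25 mice, Il2rg in 28 and Il12rb1 in 30. Gpr171 overlaps Med12l on the opposite strand, and Salmon was left to detect the library type, with no outcome given in the sources used here, so it is not known whether their reads were told apart. Med12l was not above control at any of the days 5, 8 and 28 (Log2FC -0.04, -0.09 and -0.53). Il2rg overlaps Gm20489 and Il2ra overlaps Gm37881, each on the same strand, and neither overlapping gene was in the deposited table.

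Library totals lay between 19046977 and 57407902 counts (median 27024978). Levels are given in CPM, counts scaled to a common library size after TMM normalization. Of the 15 T cell markers used here, 4 were in the table (Cd6, Cd8a, Trbc2 and Zap70), and their summed level in rAAV-OVA mice was 115 to 181 CPM at 5 days, 181 to 604 CPM at 8 days and 36.4 to 732 CPM at 28 days. In rAAV-control mice the sum lay between 3.52 and 38.9 CPM, and the highest value belonged to D720 at 8 days, with 9.73 CPM of Cd8a against at most 1.35 CPM in any other rAAV-control mouse. At the other end stood the rAAV-OVA mouse D844 at 28 days, with 6.28 CPM of Cd8a against 79.1 to 171 CPM in the other 3 mice of its group. Both mice are kept under their labels, and the values of the 6 genes and of listed genes that moved most without them are given with and without them. In bulk tissue, fewer cells of a type and less RNA per cell cannot be told apart.

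Promoter sequence was found in the RefSeq table for 3 of the 6 genes, on the GRCm38.p6 build. It is shown for Gzmb, the gene of the 6 that fell from 5 to 28 days, and for 2 chains of the IL-2 receptor that did not pass that test, and each run gives the 250 bases before the start of the gene, 5′ to 3′ on the strand of the gene. Capitals mark the AP-1 motif TGANTCA and the RUNX motif TGTGGT, which were searched on both strands together with the STAT motif TTCNNNGAA. The runs lie at chr14:56262335-56262584 on the minus strand (Gzmb), chr2:11642542-11642791 on the plus strand (Il2ra) and chrX:101268256-101268505 on the minus strand (Il2rg).
Gzmb: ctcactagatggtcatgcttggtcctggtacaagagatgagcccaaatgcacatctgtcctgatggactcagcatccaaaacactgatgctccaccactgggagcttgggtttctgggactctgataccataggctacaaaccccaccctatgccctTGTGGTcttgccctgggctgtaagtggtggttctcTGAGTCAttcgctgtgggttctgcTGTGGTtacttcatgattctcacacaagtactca
Il2ra: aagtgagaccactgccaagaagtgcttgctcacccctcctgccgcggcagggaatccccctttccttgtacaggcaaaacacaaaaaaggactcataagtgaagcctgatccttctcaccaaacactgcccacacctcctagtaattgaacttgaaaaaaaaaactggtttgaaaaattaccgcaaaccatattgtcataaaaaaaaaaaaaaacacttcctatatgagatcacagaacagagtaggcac
Il2rg: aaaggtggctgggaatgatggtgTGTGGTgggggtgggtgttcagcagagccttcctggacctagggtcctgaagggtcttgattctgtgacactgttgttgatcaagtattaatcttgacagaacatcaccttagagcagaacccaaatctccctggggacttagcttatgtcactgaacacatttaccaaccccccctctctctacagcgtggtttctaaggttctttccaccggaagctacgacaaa
The Gzmb run held TGTGGT at -93 to -88 and at -34 to -29, counted back from the start of the gene, and TGANTCA at -58 to -52. The Il2rg run held TGTGGT at -227 to -222, and the Il2ra run held none of the 3 motifs. The motifs did not overlap each other. Among 32851 promoters of the same length, 14% held TGTGGT at least 1 time and 1.27% at least 2 times, 6.75% held TGANTCA and 7.02% held TTCNNNGAA. These matches describe letters only.

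Granzyme B was highest at 5 and 8 days and low at 28 days, while none of the 5 receptor genes passed the test of the tissue level between 5 and 28 days, in tissue that by then held more Cd8a. In rAAV-OVA mice Gzmb fell from 31.2 ± 15.3 CPM (SD, n = 4) at 5 days to 5.15 ± 3.37 CPM (n = 4) at 28 days. Il2rb stood at 49.5 ± 10.3 CPM (n = 4) at 5 days and 51.9 ± 39.8 CPM (n = 4) at 28 days, and Cd8a at 41.0 ± 6.18 CPM (n = 4) and 106 ± 79.0 CPM (n = 4). Relative to Cd8a each of the 6 genes was lower at 28 days than at 5 days without overlap, most of all Gzmb. So were 1.24% of all genes, and 93.6% when D844 was left out. The 5 day values also chose the 6 genes.

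At 2 days the 6 genes were low in both groups, with Log2FC from -0.96 for Il2rg to 0.82 for Gpr171. Gzmb lay between 0 and 0.514 CPM in the 4 rAAV-OVA mice and between 0.104 and 0.467 CPM in the 4 rAAV-control mice. Il2ra ran from 0.325 to 0.477 CPM with OVA and from 0.148 to 0.486 CPM in controls, and Il2rb from 0.379 to 1.43 CPM with OVA and from 0.703 to 1.56 CPM in controls. Cd8a was at most 0.257 CPM with OVA and 0.590 CPM in controls, so that the values of both groups overlapped for each of these genes. Il12rb1 was 7.05 CPM in the rAAV-OVA mouse BEC-B542, far from the other 3 mice of that group, which started at 0.617 CPM.

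Granzyme B, the cytotoxic protease, was close to 0 in most controls and lowest with OVA at 28 days among the days from 5 on. Gzmb stood at 44.6 CPM in D725, 11.6 CPM in D726, 42.0 CPM in D786 and 26.5 CPM in D787 at 5 days. At 8 days the values were 39.6 CPM in D700, 14.5 CPM in D701, 17.5 CPM in D702 and 25.5 CPM in D703. At 28 days they were 8.57 CPM in D661, 5.04 CPM in D667, 6.41 CPM in D845 and 0.586 CPM in D844. No mouse at 28 days reached the lowest mouse of 5 or 8 days. The 15 rAAV-control mice ran from 0 to 8.11 CPM with a median of 0.296 CPM, and without D720 the highest was 0.808 CPM in D843 at 28 days, which lay above D844. The Log2FC of rAAV-OVA over rAAV-control was 6.80 (SE 0.84) at 5 days, 3.51 (SE 0.73) at 8 days and 2.63 (SE 0.85) at 28 days. Without D720 the difference at 8 days was 5.07.

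Il2ra, the α chain that activated T cells add to the receptor, was lower in level than its partner chains, in CPM and per kilobase. At 5 days Il2ra was 19.4 CPM in D725, 11.6 CPM in D726, 19.2 CPM in D786 and 13.6 CPM in D787. It was 35.2 CPM in D700, 12.8 CPM in D701, 13.9 CPM in D702 and 24.9 CPM in D703 at 8 days. It was 16.3 CPM in D661, 8.81 CPM in D667, 20.1 CPM in D845 and 0.793 CPM in D844 at 28 days. The days overlapped, and D844 alone fell near the control range, which ended at 0.731 CPM without D720 and at 3.36 CPM with it. The Log2FC over control was 5.08 (SE 0.58) at 5 days, 4.08 (SE 0.58) at 8 days and 3.94 (SE 0.63) at 28 days.

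Il2rb, the β chain that signals for IL-2 and IL-15, had the same order of mice at 8 days as Il2ra. Il2rb stood at 53.3 CPM in D725, 47.0 CPM in D726, 61.0 CPM in D786 and 36.6 CPM in D787 at 5 days. The 8 day mice had 116 CPM in D700, 39.4 CPM in D701, 57.2 CPM in D702 and 88.8 CPM in D703. The 28 day mice had 85.6 CPM in D661, 34.8 CPM in D667, 83.4 CPM in D845 and 3.69 CPM in D844. Spread between mice grew after 5 days, and D844 was still above the controls other than D720, which reached at most 1.56 CPM. D720 had 11.8 CPM. The Log2FC over control was 5.46 (SE 0.61) at 5 days, 4.41 (SE 0.60) at 8 days and 5.29 (SE 0.67) at 28 days.

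Il2rg, the γ chain shared by a family of cytokine receptors, had the highest level of the 6 genes, in CPM and per kilobase. Its level was 66.4 CPM in D725, 60.01 CPM in D726, 70.7 CPM in D786 and 54.5 CPM in D787 at 5 days. In D700 it was 155 CPM, in D701 48.3 CPM, in D702 63.3 CPM and in D703 101 CPM at 8 days. In D661 it was 129.8 CPM, in D667 54.4 CPM, in D845 141 CPM and in D844 6.34 CPM at 28 days. The order of the mice was that of Il2rb at 8 days, and D844 lay within the range of the controls, since the control D743 at 2 days lay above it and D720 had 29.5 CPM. The Log2FC of Il2rg over control was 4.11 (SE 0.69) at 5 days, 3.57 (SE 0.70) at 8 days and 4.94 (SE 0.77) at 28 days.

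Il12rb1 codes for the chain that the IL-12 and IL-23 receptors share. Its values at 5 days were 22.3 CPM in D725, 14.5 CPM in D726, 19.9 CPM in D786 and 17.8 CPM in D787. Those at 8 days were 21.99 CPM in D700, 8.99 CPM in D701, 22.6 CPM in D702 and 22.3 CPM in D703. Those at 28 days were 27.8 CPM in D661, 7.47 CPM in D667, 19.8 CPM in D845 and 1.62 CPM in D844. D701 was far from the other 3 mice at 8 days, and D844 lay below the highest rAAV-control mouse at 28 days, which had 1.81 CPM. The Log2FC of Il12rb1 over control was 3.57 (SE 0.65) at 5 days, 2.65 (SE 0.64) at 8 days and 1.95 (SE 0.66) at 28 days, and D720 had 11.03 CPM.

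Gpr171, the G protein-coupled receptor, had the lowest mean level of the 6 at 5 days, in CPM and per kilobase. Values of 11.8 CPM in D725, 11.5 CPM in D726, 12.98 CPM in D786 and 8.97 CPM in D787 were measured at 5 days. Values of 21.01 CPM in D700, 7.37 CPM in D701, 9.79 CPM in D702 and 16.7 CPM in D703 were measured at 8 days. Values of 15.9 CPM in D661, 8.46 CPM in D667, 18.3 CPM in D845 and 0.552 CPM in D844 were measured at 28 days. Each of these lay above the rAAV-control mice other than D720, which reached at most 0.467 CPM, and D844 lay below D720 with 1.48 CPM. Gpr171 had 0 counts in the 4 rAAV-control mice at 28 days, and against a floor of 3 counts per library, 0.137 CPM, the mean of the rAAV-OVA mice was at least 78.6-fold higher and D844 at least 4.02-fold higher. At 5 days the Log2FC over control was 6.33 (SE 0.76) and at 8 days 5.02 (SE 0.71). Around Gpr171, P2ry14 was higher with OVA at 5, 8 and 28 days (Log2FC 1.92, 1.47 and 1.08, FDR 0.00012, 0.0032 and 0.012 by edgeR's quasi-likelihood test, Benjamini-Hochberg adjusted). P2ry13 passed at 28 days with 1.04, and Pcsk1n, the source of the BigLEN peptide, had -0.62, -0.47 and -0.16 and passed on none of these days.

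**Figure D1:**
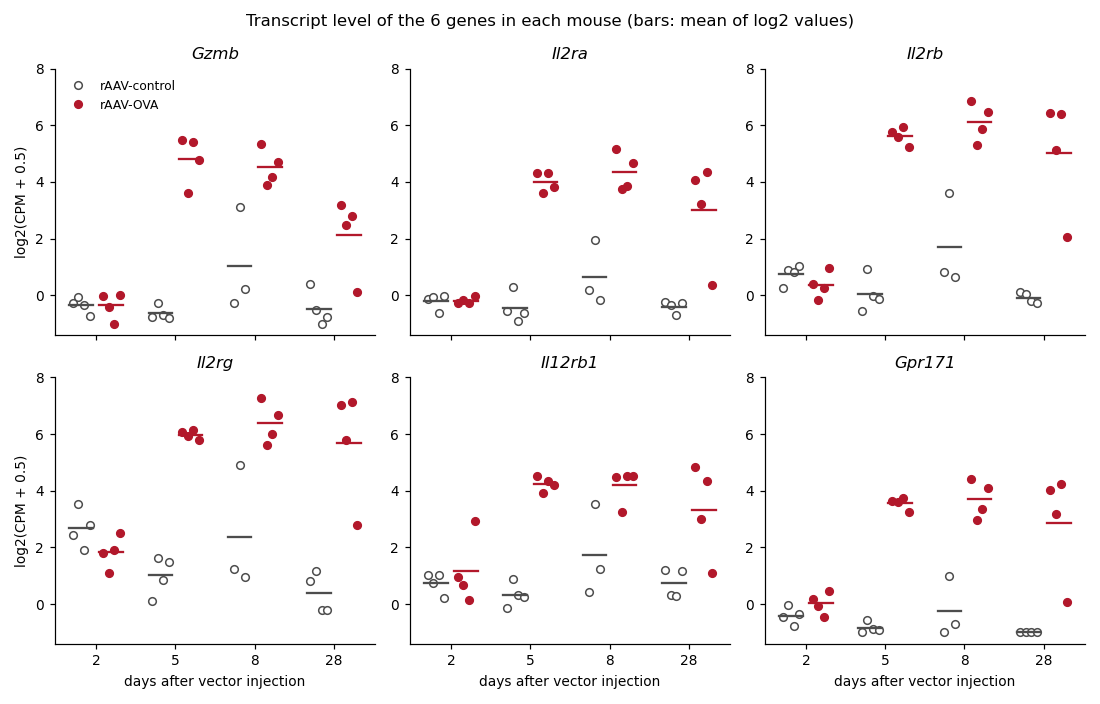
Level of each of the 6 genes in every mouse, as log2(CPM + 0.5), by day after injection. Open grey points are rAAV-control mice, filled red points rAAV-OVA mice, and bars give group means. The rAAV-OVA points rise above control at 5 days in each panel, the Gzmb points are lower again at 28 days, and D844 is the low red point at 28 days in every panel.

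At 28 days each group held 2 mice of batch 1 and 2 mice of batch 2, as the labels give the batch, while the 5 and 8 day animals belonged to batch 1 alone. Within batch 1 the rAAV-OVA mice had 8.57 and 5.04 CPM of Gzmb and the rAAV-control mice 0 and 0.0915 CPM. Within batch 2 the rAAV-OVA mice had 6.41 and 0.586 CPM and the rAAV-control mice 0.808 and 0.201 CPM. In batch 1 both rAAV-OVA mice exceeded both rAAV-control mice for each of the 6 genes, and in batch 2 the same held for Il2ra, Il2rb, Il2rg and Gpr171 but not for Gzmb and Il12rb1. Without D720 the Log2FC at 8 days was 4.72 for Il2ra, 5.48 for Il2rb, 5.25 for Il2rg, 3.53 for Il12rb1 and 7.003 for Gpr171. Leaving out another control mouse of that day, D696 or D722, lowered each of them, down to 2.54 for Gzmb, 3.17 for Il2ra, 3.45 for Il2rb, 2.54 for Il2rg, 1.82 for Il12rb1 and 3.99 for Gpr171. Without D844 that at 28 days was 3.05 for Gzmb, 4.39 for Il2ra, 5.98 for Il2rb, 5.48 for Il2rg and 2.66 for Il12rb1. The value of Gzmb at 28 days moved most without the control mouse D843, to 4.17, and with each mouse left out it ran from 2.14 upward. The Log2FC at 28 days was smaller with the surrogate variables than without them. Without them it was 4.19 for Gzmb, 5.43 for Il2ra, 6.84 for Il2rb, 6.46 for Il2rg and 3.49 for Il12rb1.

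Per kilobase of transcript, which allows levels to be compared between genes, Il2rg was also the highest at 5 days with 55.5 ± 6.26 CPM per kb (SD, n = 4). Gzmb followed with 21.7 ± 10.7 CPM per kb and Il2rb with 16.3 ± 3.38 CPM per kb, whose ranges overlapped. Il12rb1 stood at 6.80 ± 1.22 CPM per kb, Il2ra at 5.88 ± 1.46 CPM per kb and Gpr171 at 5.09 ± 0.76 CPM per kb, and these 3 also overlapped. At 28 days Gzmb had moved to the end of the order with 3.59 ± 2.35 CPM per kb (n = 4), behind Il2ra with 4.24 ± 3.15 CPM per kb and Gpr171 with 4.85 ± 3.60 CPM per kb, again with overlapping ranges. Il2rb was at 17.04 ± 13.1 CPM per kb and Il2rg at 73.1 ± 56.3 CPM per kb at that time. Lengths are medians of the coding transcripts of GENCODE M21.

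Levels in rAAV-OVA mice were then compared day against day with edgeR's quasi-likelihood test, with FDR values (Benjamini-Hochberg, over 15648 genes) limited to 0.05 and a change of 0.66 or more on the log2 scale in either direction as second limit. Since the genes were chosen for high values at 5 days, a comparison with that day is not independent of the choice, whereas that of 28 with 8 days does not use it. P-values here measure the spread between mice.

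From 5 to 8 days no change of the 6 genes passed, while Cd8a rose. Among all genes 2.1% passed in either direction, and of the 6 genes 0 did, 0 also with DESeq2 and 1 at an unadjusted p under 0.05 with edgeR. The Log2FC of 8 over 5 days was 1.04 for Il2rb (SE 0.45, FDR 0.19), 0.97 for Il2rg (SE 0.56, FDR 0.36) and 0.87 for Il2ra (SE 0.43, FDR 0.28). Gzmb had the smallest value, 0.12 (SE 0.56, FDR 0.94). Over the same days Cd8a rose by 1.91 (SE 0.47, FDR 0.019).

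From 8 to 28 days granzyme B fell. The Log2FC was -2.62 for Gzmb (SE 0.61, FDR 0.021), the only gene of the 6 that passed, against 0.498% of all genes that were lower. Il2ra had -1.27 (SE 0.44, FDR 0.090), Il2rb -1.003 (SE 0.45, FDR 0.19) and Il12rb1 a like value (SE 0.54, FDR 0.28). Gpr171 with -0.76 and Il2rg with -0.55 were nearer to 0, and so was Cd8a with -0.48 (SE 0.46, FDR 0.58). The Gzmb call was lost without surrogate variables (Log2FC -2.24, FDR 0.11), with the batch label in their place (-2.12, FDR 0.21) and when D700 (-2.40, FDR 0.080), D701 (-1.72, FDR 0.23), D702 (-2.35, FDR 0.069), D845 (-1.98, FDR 0.92) or D844 (-2.59, FDR 0.083) was left out. In the same step 4 of 8 monocyte markers fell, Chil3 by 3.74 (SE 0.50, FDR 0.0017), F10 by 3.18 (SE 0.85, FDR 0.039), Ly6c2 by 3.07 (SE 0.61, FDR 0.011) and Plac8 by 2.48 (SE 0.55, FDR 0.017), and their part in the change of Gzmb was not tested. Of the other monocyte markers Fcgr4 had -1.64, Ccr2 -0.24, S100a4 0.76 and Vcan 0.11, and none of these passed. Without D661 or D667 Il2ra passed as well as Gzmb (Log2FC -1.67 and -1.54 for Il2ra, FDR 0.044 and 0.034).

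Between 5 and 28 days Gzmb fell by 2.498 on the log2 scale (SE 0.59, FDR 0.0040), and it was again the only gene of the 6 that passed, against 3.46% of all genes that were lower. Il2ra stood at -0.40 (SE 0.42, FDR 0.53), Il12rb1 at -0.39 (SE 0.52, FDR 0.62), Gpr171 at 0.02 (SE 0.46, FDR 0.98), Il2rb at 0.04 (SE 0.44, FDR 0.96) and Il2rg at 0.42 (SE 0.54, FDR 0.62). Cd8a rose by 1.42 (SE 0.45, FDR 0.026) and Trbc2, the constant region of the T cell receptor β chain, by 1.81 (SE 0.48, FDR 0.0089). The Gzmb call was lost without D845 (Log2FC -2.21, FDR 0.099). It was the only left-out mouse to do so.

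The response, OVA over control, was compared between 28 and 8 days, which does not use the 5 day mice. None of the 6 genes passed with edgeR's quasi-likelihood test (0 of 6, and 0 with DESeq2), 0% of all genes did, and 1 of the 6 had an unadjusted p under 0.05 with each tool. That gene was Gpr171, whose fitted response at 28 days rests on controls with 0 counts and is not given. Gzmb had -0.88 (SE 1.19, FDR 0.76), Il2ra -0.14 (SE 0.95, FDR 0.96), Il2rb 0.89 (SE 0.93, FDR 0.67), Il2rg 1.36 (SE 1.05, FDR 0.54) and Il12rb1 -0.70 (SE 0.94, FDR 0.76). The direction for Gzmb, Il2ra and Il12rb1 turned without surrogate variables, to 1.18 (FDR 0.75), 1.53 (FDR 0.58) and 1.44 (FDR 0.61), and also with the batch label, to 1.097, 1.52 and 1.45. With each mouse left out Gzmb ran from -2.03, without D720, to 0.74. Without D720 the others were also lower, Il2ra at -0.585 (FDR 0.84), Il2rb at 0.11 (FDR 0.97), Il2rg at 0.097 (FDR 0.98) and Il12rb1 at -1.26 (FDR 0.62). The response at 28 days less that at 5 days contains the difference by which the genes were chosen, and it is given as a description. It was -4.17 for Gzmb, -1.62 for Il12rb1, -1.14 for Il2ra, -0.16 for Il2rb and 0.83 for Il2rg.

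To set the level of each gene against the amount of T cell transcript, its ratio to Cd8a was used. The ratio was taken in each rAAV-OVA mouse as CPM per CPM of Cd8a, and compared between days as log2((CPM + 0.5)/(Cd8a CPM + 0.5)) with a 2-sided exact permutation test. With 4 against 4 mice the smallest p possible is 0.0286. For the 6 genes 18 comparisons were made, and their p-values are not adjusted.

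Gzmb per Cd8a was lower in the mean on each later day. At 5 days it was 1.05 in D725, 0.268 in D726, 0.908 in D786 and 0.828 in D787. At 8 days it was 0.243 in D700, 0.279 in D701, 0.225 in D702 and 0.1895 in D703. At 28 days it was 0.0509 in D661, 0.0637 in D667, 0.0375 in D845 and 0.0934 in D844. D726 was within the range of the 8 day mice, and no 28 day mouse reached that range, D844 included. The log2 difference was -1.54 from 5 to 8 days (exact permutation p = 0.0571), -1.75 from 8 to 28 days (exact permutation p = 0.0286) and -3.29 from 5 to 28 days (exact permutation p = 0.0286), the last being a 9.77-fold decrease.

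Among the IL-2 receptor chains the size of the loss from 5 to 28 days ran in the order α, β, γ, and the differences between chains were not tested. For Il2ra the ratio was 0.458 in D725, 0.268 in D726, 0.415 in D786 and 0.425 in D787 at 5 days. It came to 0.216 in D700, 0.247 in D701, 0.179 in D702 and 0.185 in D703 at 8 days, and to 0.0967 in D661, 0.111 in D667, 0.118 in D845 and 0.126 in D844 at 28 days. With the pseudocount the change from 8 to 28 days was -0.71 (exact permutation p = 0.0857), and D844 then lay in the range of the 8 day mice. From 5 to 28 days it was -1.62, a 3.06-fold decrease (exact permutation p = 0.0286).

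Il2rb per Cd8a was tight within each day. It was 1.26 in D725, 1.09 in D726, 1.32 in D786 and 1.144 in D787 at 5 days. It was then 0.714 in D700, 0.758 in D701, 0.738 in D702 and 0.6601 in D703 at 8 days, and 0.509 in D661, 0.440 in D667, 0.489 in D845 and 0.588 in D844 at 28 days. The 3 days did not overlap for Il2rb. The log2 difference was -0.74 from 5 to 8 days, -0.49 from 8 to 28 days and -1.23 from 5 to 28 days (exact permutation p = 0.0286 for each), a 2.34-fold decrease over the whole span.

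Il2rg per Cd8a fell between 5 and 8 days and did not pass the test from 8 to 28 days. It was 1.57 in D725, 1.39 in D726, 1.53 in D786 and 1.70 in D787 at 5 days. Later it was 0.952 in D700, 0.929 in D701, 0.816 in D702 and 0.750 in D703 at 8 days, and 0.771 in D661, 0.688 in D667, 0.824 in D845 and 1.01 in D844 at 28 days. The change was -0.84 from 5 to 8 days (exact permutation p = 0.0286), -0.07 from 8 to 28 days (exact permutation p = 0.657) and -0.91 from 5 to 28 days (exact permutation p = 0.0286, 1.88-fold).

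Il12rb1 and Gpr171 also fell per Cd8a between 5 and 8 days. Il12rb1 per Cd8a was 0.528 in D725, 0.335 in D726, 0.431 in D786 and 0.557 in D787 at 5 days. It was 0.135 in D700, 0.173 in D701, 0.291 in D702 and 0.165 in D703 at 8 days, and 0.165 in D661, 0.0944 in D667, 0.116 in D845 and 0.258 in D844 at 28 days. Its change was -1.30 from 5 to 8 days (exact permutation p = 0.0286), -0.25 from 8 to 28 days (exact permutation p = 0.543) and -1.54 from 5 to 28 days (exact permutation p = 0.0286). Gpr171 per Cd8a was nearly equal in the 4 mice at 5 days, with 0.279 in D725, 0.267 in D726, 0.281 in D786 and 0.280 in D787. At 8 days it was 0.129 in D700, 0.142 in D701, 0.126 in D702 and 0.124 in D703, and at 28 days 0.0942 in D661, 0.107 in D667, 0.107 in D845 and 0.0879 in D844. Its change was -1.08 from 5 to 8 days (exact permutation p = 0.0286), -0.21 from 8 to 28 days (exact permutation p = 0.286) and -1.29 from 5 to 28 days (exact permutation p = 0.0286). The Gpr171 ratios of 8 and 28 days do not overlap before the pseudocount is added, and with it D844 lay above the 8 day mice. Without D844 the change from 8 to 28 days was -0.345 (exact permutation p = 0.0571, the smallest possible), and with a pseudocount of 0.1 CPM it was -0.347 (exact permutation p = 0.0286).

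**Figure D2:**
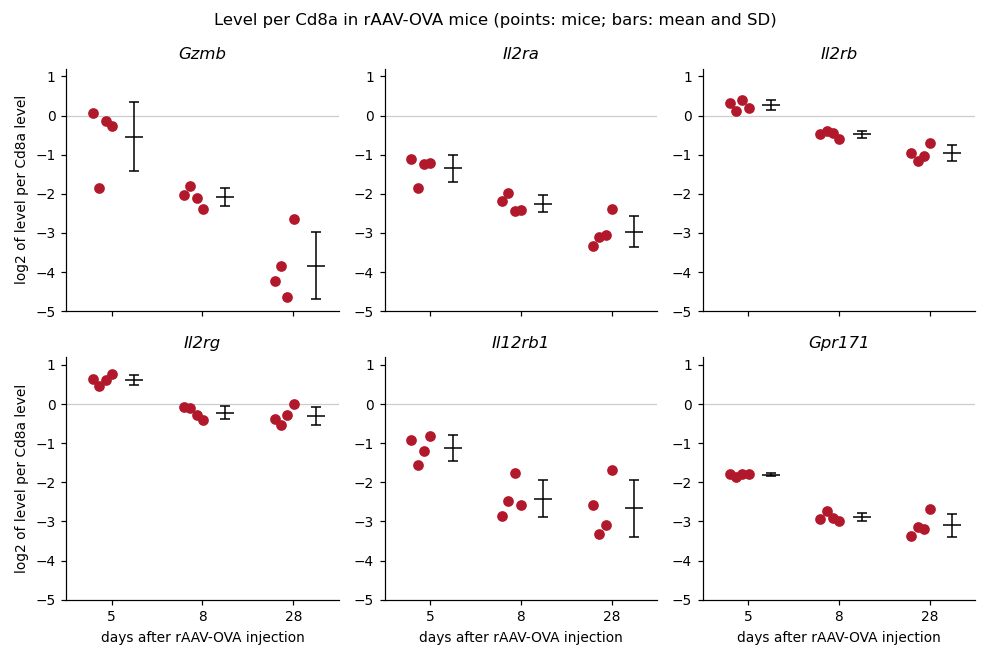
Level of each of the 6 genes relative to Cd8a in the 12 rAAV-OVA mice at 5, 8 and 28 days, as log2((CPM + 0.5)/(Cd8a CPM + 0.5)). Points are mice, with mean and SD (n = 4 per day). Each gene is lower at 28 than at 5 days, and Gzmb goes from a mean of -0.55 to -3.83.

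These ratios need their background. From 5 to 8 days 5 of the 6 genes were lower without overlap, and so were 66.5% of all genes, as Cd8a, by which each is divided, rose, so that step says nothing particular about these genes. From 8 to 28 days Gzmb and Il2rb, 2 of 6, were lower without overlap, against 0.198% of all genes. From 5 to 28 days 6 of 6 were, against 1.24% of all genes. These low shares rest on D844, whose low Cd8a gives a high ratio to genes that do not follow Cd8a. Without D844 4 of 6 were lower from 8 to 28 days against 2.77% of all genes, and 6 of 6 from 5 to 28 days against 93.6%, so the step from 5 days says nothing particular about these genes by this count. Trbc2, a second T cell transcript, changed by -0.13 relative to Cd8a from 5 to 8 days (exact permutation p = 0.371), by 0.57 from 8 to 28 days (exact permutation p = 0.0286) and by 0.43 from 5 to 28 days (exact permutation p = 0.0571). With Trbc2 in place of Cd8a the 6 genes were again lower at 28 than at 5 days, Gzmb by -3.72. Trbc2 itself rose by 1.81 over these days, and the share of all genes is not given for this ratio. With a pseudocount of 2 CPM 2 of 6 kept apart from 5 to 28 days and 0 of 6 from 8 to 28 days.

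A fit over the whole table gave the same comparison with the slope on Cd8a left free, in the 12 rAAV-OVA mice with edgeR's quasi-likelihood test and FDR values adjusted over 15647 genes by the Benjamini-Hochberg method. A gene passed here at an FDR of 0.05 with no limit on its Log2FC. At equal Cd8a, 6 of 6 genes were lower at 28 than at 5 days, against 11.8% of all genes. Since high values at 5 days chose the genes, this count and those of other comparisons with 5 days, here and per Cd8a, are not independent of the choice. The Log2FC was -3.57 for Gzmb (SE 0.39, FDR 0.00012), -1.76 for Il2ra (SE 0.19, FDR 1e-04), -1.49 for Gpr171 (SE 0.11, FDR 8e-06) and -1.49 for Il12rb1 (SE 0.28, FDR 0.0032). The signalling chains had the smallest values of the 6, Il2rb with -1.25 (SE 0.092, FDR 8e-06) and Il2rg with -0.90 (SE 0.11, FDR 0.0002). Trbc2 was higher by 0.49 (SE 0.13, FDR 0.016). Without D844, 5 of 6 passed, against 7.91% of all genes in either direction, and Il12rb1 had an FDR of 0.096. In the same fit 6 of 8 monocyte markers were lower, with a median of -3.48 over the 8, among them Ly6c2 with -4.80 (SE 0.26, FDR 2.4e-06) and Chil3 with -4.73 (SE 0.48, FDR 7.3e-05), and their part in the changes of the 6 genes was not tested.

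**Figure D3:**
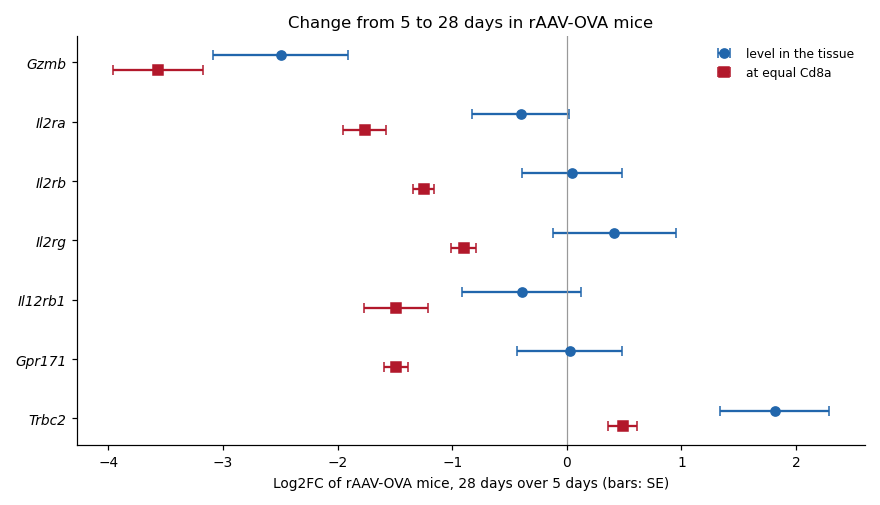
Log2FC of 28 over 5 days in rAAV-OVA mice for the 6 genes and Trbc2, with SE bars, as tissue level (blue) and at equal Cd8a (red). In the tissue level Gzmb alone of the 6 genes lies well below 0, at -2.50, and at equal Cd8a the 6 genes lie between -3.57 and -0.90 while Trbc2 lies at 0.49.

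At equal Cd8a the step from 5 to 8 days gave 6 of 6 lower genes, against 6.51% of all genes, with Log2FC from -1.43 for Gzmb (FDR 0.034) to -0.70 for Il2rb (FDR 0.0013). That step depended on single mice. Gzmb no longer passed without D725, D786, D787, D701, D702, D703, D661 or D844, Il12rb1 without D725, D786, D787, D700, D701, D703 or D844, and Il2ra without D702 or D844, and 3 of 6 remained called without D844. From 8 to 28 days 3 of 6 passed, against 0.639% of all genes that were lower. These were Gzmb with -2.14 (SE 0.36, FDR 0.016), Il2ra with -0.91 (SE 0.17, FDR 0.025) and Il2rb with -0.55 (SE 0.087, FDR 0.013), while Gpr171 had -0.37 (FDR 0.065), Il12rb1 -0.46 (FDR 0.32) and Il2rg -0.13 (FDR 0.47). With the batch label added, Il2rb alone passed (FDR 0.039), and Gzmb had -1.97 (FDR 0.093) and Il2ra -0.98 (FDR 0.074), where the 8 day mice are of batch 1 and 2 of the 4 mice at 28 days of batch 2. Of the 8 monocyte markers 5 were lower in that step. The number of the 6 genes in that step was 0 without D701 and 1 without D845 or D844, and Gpr171 passed as well without D667. Il2ra no longer passed without D700, D701, D703, D661, D845 or D844.

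D720 and D844, the mice at odds with their groups in level, can be placed by the same ratio. D720 had 8.11 CPM of Gzmb and 11.8 CPM of Il2rb at 9.73 CPM of Cd8a, ratios of 0.834 and 1.22. The rAAV-OVA mice at 8 days, the day of D720, had at most 0.279 and 0.758, and those at 5 days 0.268 to 1.05 and 1.09 to 1.32. The other rAAV-control mice at 8 days, at low counts, had 0.308 and 1.15 (D696) and 1.31 and 2.08 (D722), so D720 also lay within the ratios of its own group. D844 had ratios of 0.0934 and 0.588, the highest of the 28 day mice and below every mouse of 5 and 8 days.

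**Figure D4:**
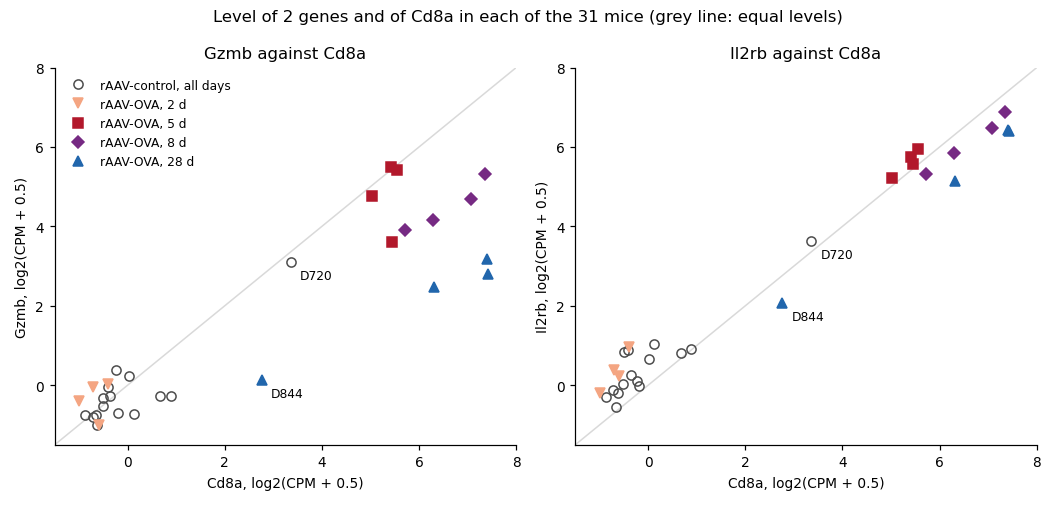
Gzmb (left) and Il2rb (right) against Cd8a in all 31 mice, each as log2(CPM + 0.5). The grey line marks equal levels, colours mark vector and day, and D720 and D844 are labelled. For Gzmb the 28 day rAAV-OVA mice lie farthest below the line, at ratios of at most 0.0934, and for Il2rb the mice of the 3 days lie closer together along it.

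Most other genes of the IL-2 and γ chain pathway were also higher with OVA. Of 22 listed genes 19 were measured, and those called higher numbered 15, 16 and 15 at 5, 8 and 28 days and those called lower 0, against 9.63%, 9.32% and 12.8% of all genes that were higher. The median Log2FC of the list was 1.51, 2.03 and 1.71, against -0.01, -0.03 and 0.01 over all genes. The lists were chosen with earlier results of these data known. The count filter could also admit a gene low in controls through the rAAV-OVA mice. Counts against control for this and the next lists are not independent of these choices and are a description. The calls against control and between days for this and the next lists rest on edgeR's quasi-likelihood test and the same limits on FDR (Benjamini-Hochberg) and Log2FC as above, and those at equal Cd8a on the FDR limit alone. Il15ra, which presents IL-15 to the β and γ chains, had Log2FC 1.84 at 5 days (SE 0.31, FDR 0.00016) and 0.63 at 28 days (SE 0.32, FDR 0.13), or 0.93 without D844 (FDR 0.077). The cytokine Il15 itself passed at 28 days with 1.04 (SE 0.37, FDR 0.032), a call lost without D844 (1.09, FDR 0.095), and at 5 days it had 0.82 (FDR 0.094).

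Downstream of these receptors, the kinase Jak3 was higher by 1.37, 1.90 and 1.84 at 5, 8 and 28 days, and Jak1 did not pass (0.27, 0.19 and 0.09). Stat5a was higher by 1.51, 2.03 and 1.85 and Stat5b by 0.77, 0.79 and 0.95. Socs1, a brake on JAK signalling, was higher by 3.52 at 5 days (SE 0.47, FDR 1.9e-05) and by 1.79 at 28 days (SE 0.50, FDR 0.0092). The Socs1 level in rAAV-OVA mice fell by 1.89 from 5 to 28 days (SE 0.41, FDR 0.0021), as did Socs3 by 2.07 (SE 0.51, FDR 0.0054) and the kinase Pim1 by 1.33 (SE 0.32, FDR 0.0052). Lck, the kinase of the T cell receptor, rose by 1.15 over the same time (SE 0.32, FDR 0.012). Socs1, Socs3 and Pim1 are known to be made by many cell types, and the cells that held their transcripts here were not tested.

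In the IL-12 and IL-18 pathway 11 of 20 listed genes were measured, and 5, 8 and 8 were higher at 5, 8 and 28 days with 0 lower, against 9.63%, 9.32% and 12.8% of all genes, and the median Log2FC of the list was 0.98, 1.25 and 1.66. Stat4, the factor that IL-12 activates, was higher by 3.71 (SE 0.63, FDR 0.00017), 4.05 and 4.92. Il18rap, a chain of the IL-18 receptor, was higher by 4.603 (SE 0.62, FDR 2e-05), 4.33 and 4.48. Il18bp, which neutralises IL-18, was higher by 3.43, 2.39 and 1.77. Without D720 the 8 day values were 5.17 for Stat4, 5.28 for Il18rap and 3.44 for Il18bp, and without D844 that of Il18bp at 28 days was 2.49. Il12a, Il12b, Il12rb2 and Ifng were not analysed here.

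Of 25 genes of cytotoxic effector function 18 were measured, and 15 were higher on each of the days 5, 8 and 28 with 0 lower, against 9.63%, 9.32% and 12.8% of all genes. The median Log2FC was 2.45, 2.48 and 2.14. Gzma, granzyme A, was higher by 4.96 at 5 days (SE 0.65, FDR 1.4e-05), 2.69 at 8 days and 4.68 at 28 days. The chemokine Xcl1 was higher by 6.12, 4.83 and 6.91, and Klrk1, the activating receptor NKG2D, by 5.27, 4.42 and 4.25. Gzmm did not pass (0.02, -0.10 and -0.22). Without D720 the 8 day values were 4.58 for Gzma, 6.28 for Xcl1 and 5.69 for Klrk1, and without D844 that of Klrk1 at 28 days was 4.90. In rAAV-OVA mice Gzma fell from 5 to 28 days by 1.41 (SE 0.48, FDR 0.034), and Xcl1 had 0.02 (FDR 0.98). Perforin (Prf1) and granzymes C and K were not analysed here.

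The 3 lists together, without the 6 genes, held 48 measured genes of 66. Of these 35, 39 and 38 were higher at 5, 8 and 28 days and 0 lower, against the same shares of all genes, and these counts are likewise a description. At 2 days 0 were called with edgeR and with DESeq2, 0% of all genes were, and 6 had an unadjusted p under 0.05 with edgeR, all lower. The 8 day count was 20 without the control mouse D722 and 40 without D720. At 28 days 31 were called in batch 1 alone, against 7.16% of all genes in either direction, and 0 in batch 2 alone, against 0% of all genes, where 11 had an unadjusted p under 0.05, all higher.

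**Figure D5:**
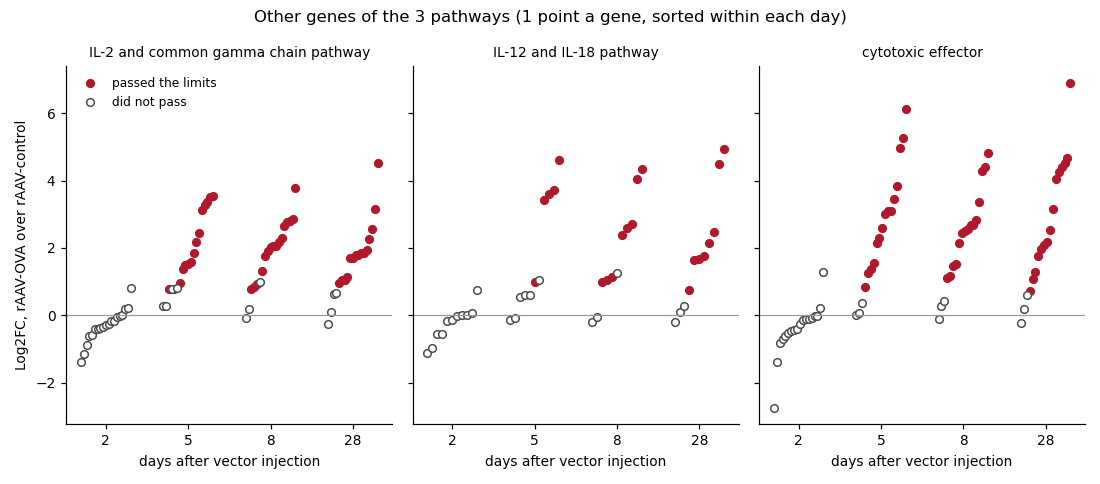
Log2FC of rAAV-OVA over rAAV-control at 2, 5, 8 and 28 days for the measured genes of the 3 pathway lists, without the 6 genes. Filled points passed an FDR of 0.05 and an absolute Log2FC of 0.66, open points did not. The median of the 48 genes is -0.25 at 2 days and 1.57, 2.06 and 1.78 at 5, 8 and 28 days.

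At equal Cd8a 25 of these 48 genes were lower at 28 than at 5 days and 1, Bcl2, was higher (Log2FC 0.58, SE 0.15, FDR 0.017), against 11.8% of all genes that were lower and 12.6% that were higher. Gzma was lower by -2.57 (SE 0.27, FDR 8.6e-05), Klrk1 by -2.09 (SE 0.25, FDR 0.00022) and Xcl1 by -1.42 (SE 0.16, FDR 0.00013). Stat4 had -0.25 (FDR 0.33). Genes of naive and memory T cells, 10 of 13 measured, of which 6, 7 and 8 were above control at 5, 8 and 28 days against 9.63%, 9.32% and 12.8% of all genes, were split at equal Cd8a, 4 higher and 3 lower, against 12.6% and 11.8% of all genes. Tcf7, the factor of memory and stem-like T cells, was higher by 0.99 (SE 0.19, FDR 0.0038) and Itgae, the CD103 integrin of tissue-resident T cells, by 1.01 (SE 0.19, FDR 0.0029). Il7r was lower by -1.56 (SE 0.23, FDR 0.00088). As tissue level Itgae rose by 2.60 from 5 to 28 days (SE 0.46, FDR 0.00035) and Tcf7 by 2.02 (SE 0.42, FDR 0.0013). The 10 proliferation genes were above control at 5, 8 and 28 days, against the same shares of all genes, and 8 of them were lower at equal Cd8a. At 2 days 0 of the 10 were called with edgeR or DESeq2, and 10 had an unadjusted p under 0.05 with both, all below control.

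Other cells could also hold the 6 genes. Of 10 markers of natural killer and innate lymphoid cells 2 were in the table, and their sum was 2.77 to 3.88 CPM in rAAV-OVA and 2.60 to 4.56 CPM in rAAV-control mice at 5 days. Of 6 markers of CD4+ and regulatory T cells 1 was, Ikzf2, at 7.33 to 10.5 CPM with OVA and 2.63 to 3.84 CPM in controls at 5 days. At 28 days Ikzf2 was 4.55 to 30.1 CPM with OVA, and it rose by 1.10 from 5 days (SE 0.30, FDR 0.011), as Cd8a did. Without Rag1 no other T cells mature in these mice, and the cells that held Ikzf2 were not tested. Of the 8 monocyte markers 6, 7 and 6 were higher with OVA at 5, 8 and 28 days, against 9.63%, 9.32% and 12.8% of all genes. The monocyte sum was 273 to 436 CPM at 5 days, 128 to 352 CPM at 8 days and 39.0 to 151 CPM at 28 days in rAAV-OVA mice, and at most 103 CPM in rAAV-control mice. From 5 to 28 days 5 of these 8 fell in rAAV-OVA mice, against 3.46% of all genes, Chil3 by 3.80 (SE 0.51, FDR 2.3e-05) and Ly6c2 by 3.08 (SE 0.59, FDR 0.00078). These 5 markers thus moved in the same direction as Gzmb, and their part in the result was not tested. S100a4 had 1.22, Vcan 0.18 and Ccr2 -0.95 over these days, and none of these passed.

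Dendritic cell markers, 5 of 8 measured, were higher for 3, 3 and 4 genes at 5, 8 and 28 days against the same shares of all genes, and their sum in rAAV-OVA mice was 128 to 180 CPM, 114 to 239 CPM and 28.6 to 237 CPM. Microglia markers, 8 of 8 measured, were higher for 3 at 5 days with 1 lower (Gpr34), for 1 at 8 days, near the share of all genes, and for 5 at 28 days. Their sum ran from 1100 to 1117 CPM, from 1012 to 1447 CPM and from 537 to 1521 CPM in rAAV-OVA mice and from 406 to 1256 CPM in rAAV-control mice. The part of these cells in the levels of the 6 genes was not tested.

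The genes most like each of the 6 across the 12 rAAV-OVA mice at 5, 8 and 28 days were ranked by Pearson's r of log2(CPM + 0.5) among 14264 genes. Day and T cell content vary across these mice for all genes alike, and the values are a description. Gzmb was most like Socs1 (r = 0.969, Spearman's rho = 0.958), Nampt (r = 0.969, rho = 0.965) and the chemokine Ccl2 (r = 0.967, rho = 0.979), and leaving out the 2 mice farthest from the median of Gzmb gave r of 0.907, 0.910 and 0.908. Its likeness to Cd8a was low (r = 0.431, rho = -0.168, and -0.383 without those 2 mice). Il2ra was most like Slamf8 (r = 0.984), Cfb (r = 0.983) and Calhm6 (r = 0.981), with r of 0.871, 0.851 and 0.847 without the 2 mice farthest from its median. Its r with Cd8a was 0.828 (rho = 0.566, and r of 0.356 without those 2 mice).

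Il2rb was most like Gimap4 (r = 0.995), Tifa (r = 0.991) and Gpr171 (r = 0.990), and its r with Cd8a was 0.913 (rho = 0.727, and r of 0.764 without the 2 farthest mice). Il2rg was most like Lcp1 (r = 0.995), Apobec3 (r = 0.995) and Was (r = 0.994), and Gpr171 was most like Ms4a6b (r = 0.997), Itgal (r = 0.996) and Lcp2 (r = 0.992). Il12rb1 was most like Psmb9 (r = 0.982), Uba7 (r = 0.981) and H2-Q4 (r = 0.981), with an r of 0.766 with Cd8a (rho = 0.427, and r of 0.488 without the 2 farthest mice). For Il2rb, Il2rg and Gpr171 r stayed at 0.930 or more with each of these genes without the 2 farthest mice, and for Gzmb with Il2rb it went from 0.737 to -0.023.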

How the data were processed

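Bulk RNA-seq of 31 left hippocampi was analysed. Per the methods and the submitters' processing notes, the authors trimmed reads with fastp, quantified GENCODE M29 transcripts with Salmon 1.8.0 with GC correction, summarised them to genes with tximeta, filtered them and used DESeq2 1.36.0. The authors deposited these estimated counts rounded to whole numbers and not normalized. Both deposited tables hold the same genes and counts (0 rows differ, apart from 4 symbols), and no sample column went unused (0). The libraries were made with the TruSeq RNA Library Prep kit, and Salmon detected the library type automatically, with the outcome not given in the sources used here. The counts use another genome build than the reference at hand, so no coordinates are given for them, and only RefSeq promoters of GRCm38.p6 are located.

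Mice were grouped by the vector and time point of their labels, and no pair among 45 within groups was as alike as counting noise. The quasi-likelihood test of edgeR 4.0.16 (R 4.3.3, TMM, robust) was fitted to 8 groups and 2 surrogate variables (sva 3.50.0), as in the study's design, and at equal Cd8a to the 12 rAAV-OVA mice of 5, 8 and 28 days with log2(Cd8a CPM + 0.5) as covariate. Exact permutation tests used scipy 1.17.1. Each mouse had 19046977 counts or more, and standard errors cover counting error and the spread between mice. On simulated data of 15648 genes, 100 genes were changed by 2 on the log2 scale and 100 by 1. The comparison of 28 with 5 days recovered 92% and 67% of them, with 7 false calls. The simulated mice had no batches and no mouse at odds with its group such as D844. Recovery under those conditions was not tested.

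The 6 genes and all gene lists (the IL-2, IL-12 and cytotoxic lists, T cell states, proliferation, neighbours of Gpr171 and markers of other cells) were chosen with earlier results of these data known. Named genes are the 6, Cd8a, the genes of these lists, the 3 genes most like each of the 6 and genes at their loci. Alternatives were DESeq2 1.42.0, its size factors, no covariates, the batch label, stricter filters, other pseudocounts, other T cell transcripts in place of Cd8a, each batch alone and each mouse left out. The alternatives for the difference in response were added after seeing the data. A further T cell marker is not reported here, and the T cell counts and sums are without it.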

Additional observations from a re-analysis of the deposited data

Results flagged for a closer look

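In groups of 4 mice, 59 sets of values were searched for a mouse far from the other 3 by Dixon's criterion, and 3 were found, where chance gives about 1 in 20. Gzmb was 0.3288 CPM in the rAAV-control mouse D724 at 5 days, above the other controls of that day and still far below every rAAV-OVA mouse of that day. Il12rb1 was 7.049 CPM in the rAAV-OVA mouse BEC-B542 at 2 days, and its median there was 1.26 CPM. Il12rb1 was 8.994 CPM in the rAAV-OVA mouse D701 at 8 days, below the other 3. The rAAV-control group at 8 days, with 3 mice, was not searched, so D720 could not be picked out in this way.

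OVA over control at 28 days less that at 5 days gave a Log2FC of -4.171 for Gzmb. Gzmb was chosen for its difference from control at 5 days, which this value contains, so it is a description, and the same difference between 28 and 8 days did not pass (-0.88, FDR 0.76 by edgeR's quasi-likelihood test, Benjamini-Hochberg over all genes) and turned to 1.18 without surrogate variables.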

How the results depend on the processing

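No paired analysis was possible because each mouse carries its own name and the labels give no replicate number shared between groups. Among the counts of genes passing, 53 values under alternative settings stayed within 1.5 times of the reported value, 5 rose and 11 fell. Leaving out a mouse is not among these settings, and such counts carry no direction. The difference in response between 28 and 8 days turned direction for Gzmb, Il2ra and Il12rb1 without surrogate variables. Of the 48 pathway genes, 0 were called at 28 days in batch 2 alone, where each group has 2 mice, and leaving out each mouse gave 34 to 39 at 5 days, 20 to 40 at 8 days and 33 to 39 at 28 days. Of the 6 genes called day against day, 8 to 28 days gave 0 without surrogate variables and 0 with the batch label, and 0 to 2 with each mouse left out, and 5 to 28 days gave 0 to 1. The difference in response from 5 to 28 days, which contains the values that chose the genes, counted 1, and it gave 0 without surrogate variables, 0 with the batch label and 0 to 1 with each mouse left out. At equal Cd8a, Trbc2 in place of Cd8a gave 3 for 5 to 8 days and 5 for 8 to 28 days, and the batch label gave 1 for 8 to 28 days. With each mouse left out the numbers were 3 to 6 for 5 to 8 days, 0 to 4 for 8 to 28 days and 5 to 6 for 5 to 28 days. Per Cd8a without overlap, 5 to 8 days gave 3 with Trbc2 and 3 with the other T cell markers. For 8 to 28 days the number was 4 with a pseudocount of 0.1 CPM, 0 with 2 CPM, 5 with Trbc2, 5 with the other T cell markers, 4 in batch 1 alone and 2 to 4 with each mouse left out. For 5 to 28 days it was 2 with 2 CPM. No share of all genes is given beside these alternative counts. With 3 against 4 mice the exact test cannot go below 0.0571. A filter of 15 counts in every mouse removes the 6 genes, so it gave no value. The cause of these changes was not tested. The low counts of Gzmb, Il2ra and Gpr171 in controls limit the precision of their differences from control.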
